A study of Mus musculus with 32 samples.

Results

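Prostaglandin genes were examined in 32 whole mouse bladders, as 10 genes chosen by name out of the 32285 genes counted: the cyclooxygenases Ptgs1 and Ptgs2, the terminal synthases Ptges, Ptgis and Ptgds, the degrading enzyme Hpgd, and the prostaglandin E2 (PGE2) receptor genes Ptger1, Ptger2, Ptger3 and Ptger4. All 10 were found in the table by their Ensembl identifiers. The bladders came from female C57BL/6 mice in 6 groups: 6 young bladders at 2 months, 5 middle-aged bladders at 10 months and old bladders at 26 months. The old mice were untreated (n = 6), or gavaged with water (n = 5), with vehicle (n = 4; Phosal, polyethylene glycol and ethanol) or with D+Q in that vehicle (n = 6). D+Q is the senolytic pair dasatinib, given at 5 mg/kg/day, and quercetin, given at 50 mg/kg/day. Treatment ran from 21 to 26 months of age, for 3 days in each month, and per the methods the mice then rested before use. No genetic change was named for any group.

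Prostaglandins are made from arachidonic acid, which phospholipase A2 enzymes release from membranes. The cyclooxygenases COX-1 (Ptgs1, made in many tissues at a steady level) and COX-2 (Ptgs2, quickly induced by inflammation, growth factors or stretch) turn it into prostaglandin H2, from which terminal synthases make PGE2, prostacyclin, PGD2 and other products. In the bladder, PGE2 and its EP receptors are known for acting on sensory nerves and on detrusor contraction, and 15-hydroxyprostaglandin dehydrogenase (Hpgd) starts the breakdown of PGE2.

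The total of assigned reads in a bladder ranged from 15088372 to 52650259 (median 34074788), with the lowest total in a young bladder. Levels are given as CPM, counts relative to library size, scaled by the trimmed mean of M values (TMM), for a single gene across bladders, and as TPM, which also divide by exon length, between genes. No marker of smooth muscle, urothelium or fibroblasts was at 0 in any group. The study measured whole tissue, so fewer cells of a type and less RNA per cell cannot be told apart. No sequencing batch was given in the labels, and each p-value weighs a difference between groups against the spread between bladders.

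The promoters of the cyclooxygenase genes are shown because Ptgs1 and Ptgs2 were both higher in old than in middle-aged bladders. The sequences are from RefSeq (GRCm38.p6), run 5′ to 3′ from 250 bases before to 50 bases after the start of transcription, and lie on the plus strand at chr1:150099781-150100080 (Ptgs2) and chr2:36230176-36230475 (Ptgs1). Capitals mark matches to any of 5 motifs, searched on both strands. The core of the cyclic AMP response element (CRE) was spelled TGACG, the E box that basic helix-loop-helix factors bind was spelled CACGTG, and the box rich in G and C that Sp factors bind was spelled GGGCGG. The other motifs were the element near the start of many inducible genes that the basal machinery binds, spelled TATAAA, and the element bound by nuclear factor Y, spelled CCAAT.
Ptgs2: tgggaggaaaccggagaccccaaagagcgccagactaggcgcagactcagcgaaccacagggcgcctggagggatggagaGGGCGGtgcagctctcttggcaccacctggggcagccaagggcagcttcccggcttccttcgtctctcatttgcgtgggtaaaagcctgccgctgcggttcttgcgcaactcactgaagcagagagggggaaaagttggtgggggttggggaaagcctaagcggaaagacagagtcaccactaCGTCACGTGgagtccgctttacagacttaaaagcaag
Ptgs1: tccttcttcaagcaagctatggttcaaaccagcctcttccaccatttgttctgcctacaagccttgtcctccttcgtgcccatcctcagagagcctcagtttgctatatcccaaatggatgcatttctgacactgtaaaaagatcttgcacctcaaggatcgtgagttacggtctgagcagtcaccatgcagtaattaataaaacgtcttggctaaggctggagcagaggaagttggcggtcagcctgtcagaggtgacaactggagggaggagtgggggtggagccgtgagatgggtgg
The Ptgs2 promoter held 1 GGGCGG box, found in 35.7% of the 32851 promoters of this length, 1 CRE core, found in 20.8%, and 1 E box, found in 7.15%. The last 2 overlap, and both lie just downstream of the annotated start. The Ptgs1 promoter held none of the 5 motif strings. Ptgs2 had a GC content of 59.3% and Ptgs1 of 50.7%, against a median of 52.7% over all promoters in the table. A match describes letters only. Promoter entries were found for 8 of the 10 genes, Ptgis and Ptger1 being the others.

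Over all 32 bladders the enzymes other than Ptgds were more abundant than the receptors by their medians. Hpgd had the highest median level at 188 TPM, followed by Ptgis (prostacyclin synthase) at 141 TPM, Ptgs1 at 96.0 TPM and Ptges (the inducible microsomal PGE2 synthase) at 75.9 TPM. The median of Ptgs2 was 11.6 TPM. Among the receptors, Ptger4 (EP4, coupled to cyclic AMP production) had a median of 8.34 TPM, Ptger3 (EP3, which lowers cyclic AMP) 5.00 TPM, Ptger1 (EP1, coupled to calcium) 2.39 TPM and Ptger2 (EP2, also coupled to cyclic AMP production) 2.10 TPM. The ranges of neighbours in this order overlapped, except between Ptges and Ptgs2, between Ptger3 and Ptger1, and between Ptger2 and Ptgds. Ptgds (the lipocalin-type PGD2 synthase) was close to absent, at a median of 0.068 TPM and at most 0.525 TPM.

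**Figure D1:**
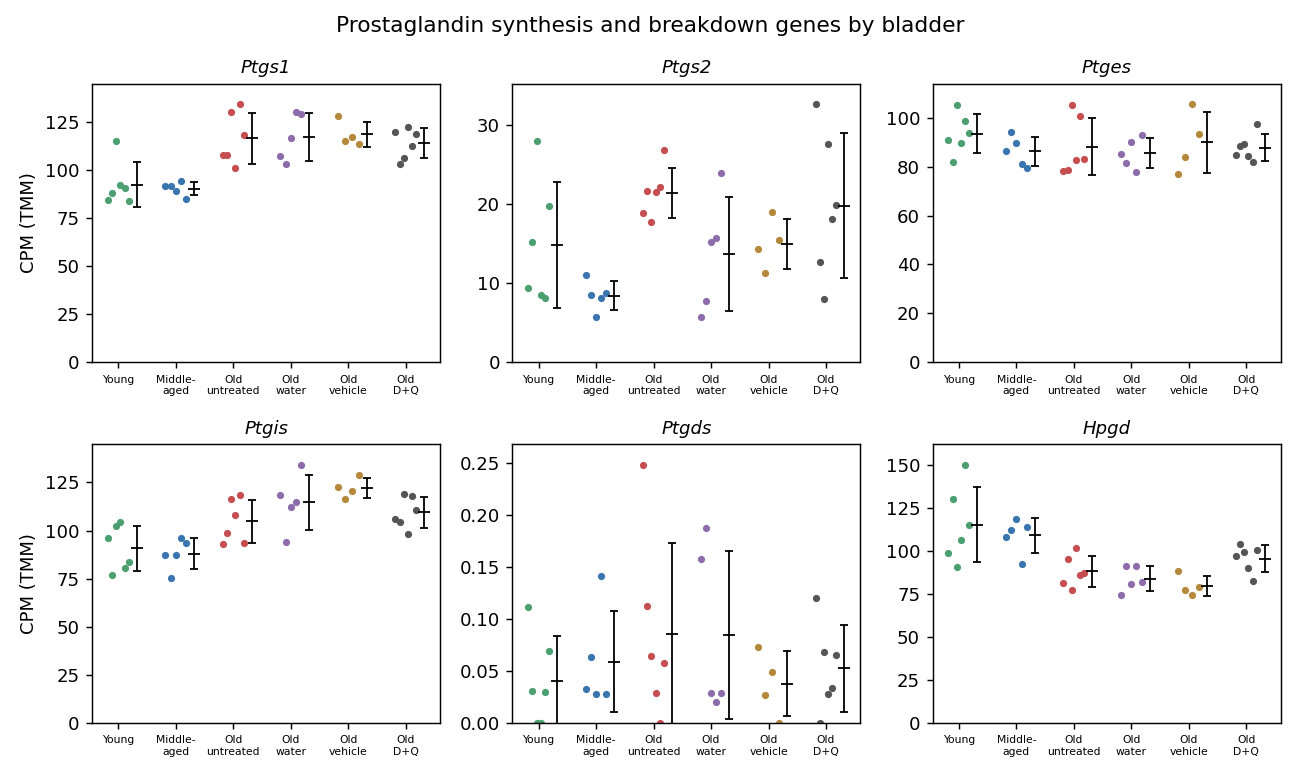
CPM (TMM scaled, linear axis from 0) of the cyclooxygenases, synthases and Hpgd in each bladder; points are bladders, black bars the group mean and SD. All untreated old points of Ptgs1 and Ptgs2 lie above all middle-aged points, and Ptgds stays below 0.25 CPM.

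Some prostaglandin genes were higher late in life, between 10 and 26 months, while none of them passed the test between 2 and 10 months. In untreated old against middle-aged bladders, Ptgs2, Ptgs1, Ptgis and Ptger4 rose and Hpgd fell. Of the 9 genes with enough counts to test, 5 passed an adjusted p of 0.05 (edgeR's quasi-likelihood test, Benjamini-Hochberg over 17156 genes), 4 higher and 1 lower. Among all genes tested, 24% passed, 13% higher and 11% lower. The median log2 fold change of the 9 was 0.27, against -0.0047 over all genes.

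Ptgs2 (ENSMUSG00000032487, chromosome 1 of mm10, 150100031 to 150108227, plus strand) moved most. Its level was 11.005, 8.49, 5.73, 8.06 and 8.74 CPM in the 5 middle-aged bladders. In the untreated old bladders the lowest value was 17.7, the median 21.6 and the highest 26.8 CPM, so every old bladder was above every middle-aged one. The means were 8.41 ± 1.88 CPM (SD, n = 5) and 21.5 ± 3.17 CPM (SD, n = 6), a 2.60-fold rise (log2 fold change 1.38, SE 0.15, edgeR adjusted p = 3.57e-05).

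Young bladders were spread widely for Ptgs2, with a lowest value of 8.07, a median of 12.2 and a highest of 28.1 CPM. Of the 6 young bladders, 3 lay within the middle-aged range and 3 above it. The log2 fold change of middle-aged against young bladders was -0.81 (SE 0.31, unadjusted p = 0.0196, edgeR adjusted p = 0.105), and that of untreated old against young bladders 0.55 (SE 0.27, edgeR adjusted p = 0.163). Neither passed.

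Ptgs1 (ENSMUSG00000047250, chromosome 2, 36230426 to 36252272, plus strand) showed a smaller change with little spread. The middle-aged bladders had 91.9, 92.0, 89.1, 94.1 and 85.0 CPM. The untreated old bladders had a lowest value of 101, a median of 113 and a highest of 134 CPM, with no overlap. The rise was 1.31-fold (log2 fold change 0.39, SE 0.068, edgeR adjusted p = 0.0013). Ptgs1 and Ptgs2 were the 2 of the 9 genes whose groups did not overlap, which held for 15.8% of all genes tested.

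Against young bladders (lowest 83.7, median 89.3, highest 115 CPM), Ptgs1 was 1.27-fold higher in untreated old bladders (log2 fold change 0.34, SE 0.087, edgeR adjusted p = 0.0110). Here 2 of 9 genes passed, against 25.1% of the 16873 genes tested, 12.6% higher and 12.4% lower. The TPM of Ptgs2 as a percentage of that of Ptgs1 was 13.3% ± 6.02 (SD, n = 6) in young, 7.89% ± 1.74 (n = 5) in middle-aged and 15.8% ± 2.84 (n = 6) in untreated old bladders. COX-1 transcript exceeded COX-2 transcript at each age.

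Among the synthases, Ptgis (ENSMUSG00000017969, chromosome 2, 167191805 to 167240604, minus strand), whose product prostacyclin relaxes vascular smooth muscle, had 87.5, 75.4, 87.4, 96.3 and 93.5 CPM in the middle-aged bladders. In untreated old bladders the lowest value was 92.7, the median 104 and the highest 119 CPM. The groups overlapped at their edges. Ptgis rose 1.21-fold (log2 fold change 0.27, SE 0.075, edgeR adjusted p = 0.0185). Against young bladders its log2 fold change was 0.21 (SE 0.089, edgeR adjusted p = 0.101) and did not pass. A stretch of 156 exon bases of Ptgis, 6.08% of its exon length, is shared with 1110018N20Rik on the other strand.

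Ptges (ENSMUSG00000050737, chromosome 2, 30889471 to 30929863, minus strand) was not called at any age. Its mean was 93.6 ± 8.03 CPM (SD, n = 6) in young, 86.4 ± 6.07 CPM (n = 5) in middle-aged and 88.3 ± 11.8 CPM (n = 6) in untreated old bladders. Ptgds had at most 0.248 CPM in any bladder and was removed by the filter on low counts in every comparison. Exact two-sided permutation tests of its log2(CPM + 0.1) gave p = 0.361 to 0.991 over the 7 comparisons of group pairs (adjusted p = 0.763 to 0.991).

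Hpgd (ENSMUSG00000031613, chromosome 8, 56294585 to 56321043, plus strand), the enzyme that inactivates PGE2, went the other way. The middle-aged bladders had 108, 112, 118, 92.2 and 114 CPM. In the untreated old bladders the lowest value was 77.1, the median 86.6 and the highest 101 CPM, and the groups overlapped through 1 middle-aged bladder. Hpgd fell by 0.28 on the log2 scale, or 17.9% (SE 0.075, edgeR adjusted p = 0.0147). It did not pass in a fit with a block for the replicate number (edgeR adjusted p = 0.0699).

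Young bladders had Hpgd levels from 90.3 to 150 CPM with a median of 111 CPM. Against them Hpgd fell by 0.38 on the log2 scale in untreated old bladders (SE 0.11, edgeR adjusted p = 0.0188). Ptgs1 and Hpgd were the genes that passed both against middle-aged and against young bladders, and these comparisons share the untreated old samples.

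**Figure D2:**
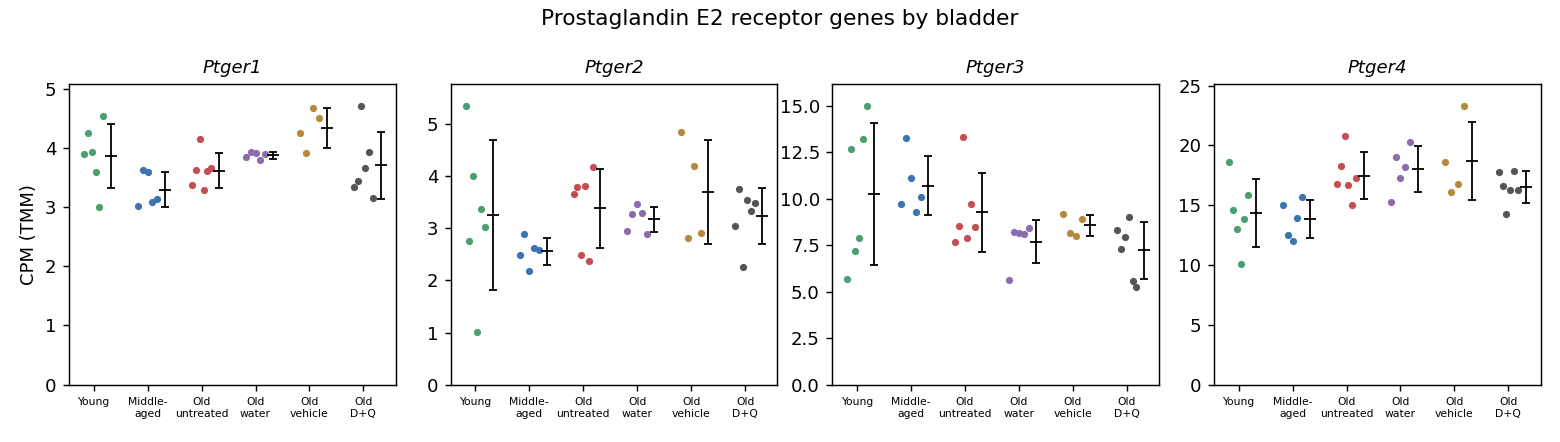
CPM (TMM scaled, linear axis from 0) of the 4 PGE2 receptor genes in each bladder; points are bladders, black bars the group mean and SD. Ptger4 lies at 15.0 to 20.8 CPM in untreated old and 12.04 to 15.7 CPM in middle-aged bladders, and Ptger2 and Ptger3 spread most among young bladders.

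Of the receptors, Ptger4 (ENSMUSG00000039942, chromosome 15, 5206661 to 5244187, minus strand) was the one that passed. Its level was 15.0, 12.5, 12.04, 13.9 and 15.7 CPM in middle-aged bladders. In untreated old bladders the lowest value was 15.0, the median 17.0 and the highest 20.8 CPM. One old bladder lay within the middle-aged range. Ptger4 rose 1.28-fold (log2 fold change 0.36, SE 0.090, edgeR adjusted p = 0.0118). It did not pass in a fit with a block for the replicate number (edgeR adjusted p = 0.0665). Against young bladders (10.1 to 18.6 CPM) its log2 fold change was 0.28 (SE 0.12, edgeR adjusted p = 0.111). Of 18 refits of that comparison 1 passed, without young replicate 1 (edgeR adjusted p = 0.0291), the young bladder highest in Ptger4. With a bladder left out the edgeR adjusted p reached 0.220.

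Ptger2 (chromosome 14, 44988195 to 45003820) had 2.49, 2.89, 2.19, 2.63 and 2.59 CPM in middle-aged bladders and from 2.37 to 4.19 CPM (median 3.72) in untreated old bladders. Its log2 fold change of 0.43 (SE 0.16, unadjusted p = 0.0170, edgeR adjusted p = 0.0650) missed the threshold. It passed by DESeq2 (adjusted p = 0.0397), which called 6 members in this comparison, and by edgeR without untreated old replicate 3 (adjusted p = 0.0295) or 5 (adjusted p = 0.0184), the bladders lowest in Ptger2. Ptger2 was uneven in young bladders, from 1.02 to 5.35 CPM.

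Ptger3 (chromosome 3, 157566892 to 157645888) was not called at any age, at 5.68 to 15.0 CPM in young, 9.27 to 13.3 CPM in middle-aged and 7.68 to 13.3 CPM in untreated old bladders. Ptger1 (chromosome 8, 83666678 to 83672753) had 2.99 to 4.54, 3.01 to 3.63 and 3.28 to 4.15 CPM in the same groups. Its values are uncertain, because the strandedness of the counting was not given in the sources used here and reads from the other strand cannot be told apart from its own. Ptger2 and Ptger4 share 4.74% and 1.23% of their exon length with Gm17173 and Ttc33, and Ptgs1, Ptgs2, Ptges, Ptgds, Hpgd and Ptger3 share none.

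Between 2 and 10 months no member passed by edgeR, against 10.8% of 16754 genes. The count was 1, Ptgs2, at an unadjusted p of 0.05 and 0 by DESeq2. Over all genes, 4564 had an unadjusted p under 0.05, and DESeq2 called 2672. Log2 fold changes of the tested members other than Ptgs2 ran from -0.36 (Ptger2) to 0.033 (Ptger3).

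**Figure D3:**
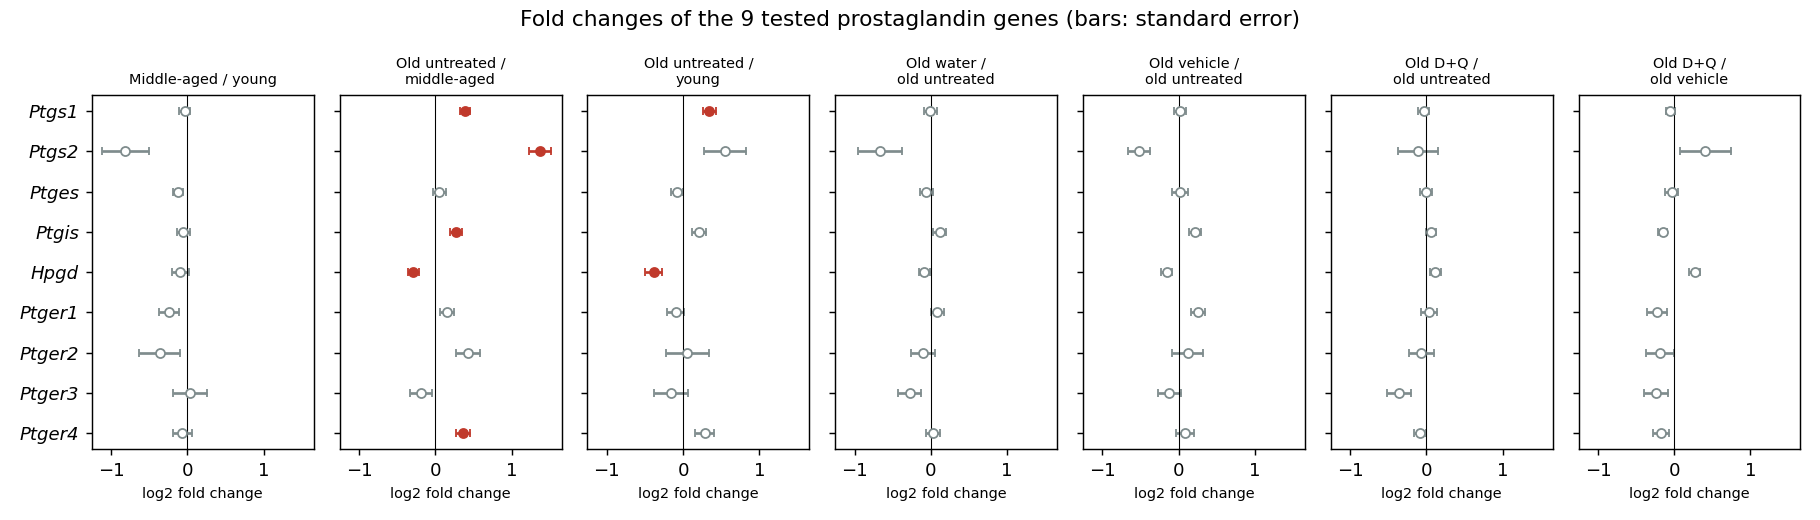
Log2 fold change (first group over second, x axis) of the 9 tested genes in 7 comparisons; bars are standard errors, filled red points have adjusted p under 0.05 by edgeR. Filled points occur in the 2 comparisons of untreated old with younger bladders, 5 against middle-aged and 2 against young.

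The old bladders of gavaged mice were also set against the same 5 middle-aged bladders. These animals were not used above, and they differed from the middle-aged mice in gavage as well as age. Age and gavage cannot be told apart in this comparison. Levels of Ptgs1 in all 15 gavaged old bladders (103 to 130 CPM) were above every middle-aged bladder. Ptgis was above every middle-aged bladder in 14 of 15, Ptger2 and Ptger4 each in 13 of 15, and Ptgs2 and Ptger1 each in 12 of 15. Hpgd was below every middle-aged bladder in 11 of 15 and Ptger3 in all 15 (5.25 to 9.17 CPM). The share of all genes with such counts was not computed, so whether these counts are unusual cannot be told.

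In a fit chosen after seeing the data, the mean of the 3 gavaged groups was compared with middle-aged bladders, and 8 of 9 members passed, 6 higher and 2 lower. Of 17812 genes tested, 14.6% passed, 9.31% higher and 5.29% lower. The log2 fold changes were 0.95 for Ptgs2 (SE 0.30, edgeR adjusted p = 0.0398), 0.39 for Ptgs1 (adjusted p = 0.000130), 0.41 for Ptgis (adjusted p = 0.000403), 0.38 for Ptger4 (adjusted p = 0.00583) and -0.32 for Hpgd (adjusted p = 0.00160). Ptger1, Ptger2 and Ptger3, which had not passed in untreated old bladders, passed here at log2 fold changes of 0.29, 0.42 and -0.43 (edgeR adjusted p = 0.0336, 0.0342 and 0.0155). Ptges was the member that did not pass (log2 fold change 0.045, adjusted p = 0.705).

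Whether gavage and D+Q moved these genes at a single age was asked among the 26-month groups. No member passed by edgeR in any of these comparisons, nor in a test of any difference among the 4 old groups. Of all genes tested, 1% passed for water against untreated, 0% for vehicle against untreated, 0% for D+Q against untreated, 0% for D+Q against vehicle, and 0.0671% for any difference among the 4 groups. At an unadjusted p of 0.05 the members counted 1, 3, 1, 2 and 1 in that order, and by DESeq2 0, 1, 0, 0 and 0. Over all genes, 2760 of 17250, 1464 of 17440, 2200 of 17037, 722 of 17267 and 1650 of 17893 had an unadjusted p under 0.05 in that order. DESeq2 called 703, 132, 185, 11 and 189.

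Ptgs2 varied from 5.73 to 32.7 CPM over the 15 gavaged bladders. Water-gavaged bladders had 5.73, 7.69, 15.2, 15.8 and 23.9 CPM, and vehicle-gavaged bladders 14.3, 11.3, 19.0 and 15.5 CPM. In 9 of the 15 gavaged bladders Ptgs2 lay below every untreated old bladder. The log2 fold change against untreated old bladders was -0.66 for water (SE 0.29, unadjusted p = 0.0394, edgeR adjusted p = 0.287) and -0.52 for vehicle (SE 0.14, unadjusted p = 0.00409, edgeR adjusted p = 0.410). The vehicle difference passed by DESeq2 (adjusted p = 0.0397).

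D+Q bladders ranged from 7.95 to 32.7 CPM for Ptgs2 (median 19.0), which covered both the highest value of all 32 bladders and a value within the middle-aged range. Against untreated old bladders the mean was 19.8 ± 9.19 CPM (SD, n = 6), a log2 fold change of -0.11 (SE 0.26, edgeR adjusted p = 0.870). Against vehicle it was 0.41 (SE 0.33, edgeR adjusted p = 0.994). Neither passed.

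Hpgd had 88.0, 76.9, 74.2 and 78.7 CPM in the vehicle bladders and from 82.5 to 104 CPM (median 97.9) in the D+Q bladders. The groups overlapped through vehicle replicate 1 and D+Q replicate 5. The log2 fold change of D+Q over vehicle was 0.27 (SE 0.069, unadjusted p = 0.00240, edgeR adjusted p = 0.994). Hpgd also had the smallest p of the members for any difference among the 4 old groups (unadjusted p = 0.0110, edgeR adjusted p = 0.401).

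Ptgis was 122 ± 5.19 CPM (SD, n = 4) in vehicle, 105 ± 11.4 CPM (n = 6) in untreated old and 109 ± 8.18 CPM (n = 6) in D+Q bladders. Its log2 fold change was 0.21 for vehicle over untreated (SE 0.075, unadjusted p = 0.0164, edgeR adjusted p = 0.511) and -0.15 for D+Q over vehicle (SE 0.060, unadjusted p = 0.0262, edgeR adjusted p = 0.994). Both rest on the same 4 vehicle bladders. Ptger3 gave -0.36 for D+Q over untreated (SE 0.16, unadjusted p = 0.0439, edgeR adjusted p = 0.375), at 5.25 to 8.998 CPM in D+Q bladders. Ptger1 gave 0.25 for vehicle over untreated (SE 0.096, unadjusted p = 0.0240, edgeR adjusted p = 0.535), with the uncertainty given above. All other pairs of a member and a gavage comparison had an unadjusted p above 0.05.

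Genes around the 10 members were taken from 4 lists, whose counts of calls stand beside the 24% of all genes called late in life (13% higher, 11% lower). In untreated old against middle-aged bladders, 2 of 9 tested phospholipase A2 genes passed, both higher: Pla2g5 (log2 fold change 1.44, SE 0.36, edgeR adjusted p = 0.0119) and Pla2g4c (1.03, SE 0.25, adjusted p = 0.0103). Both encode enzymes that free fatty acids from phospholipids, and both were low, at 1.18 and 0.682 CPM in old bladders. The median of the list was 0.073. Pla2g4a, the cytosolic enzyme that feeds the cyclooxygenases in many cells, was not called.

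Of the other prostanoid enzymes, 3 of 9 passed. Hpgds, the hematopoietic PGD2 synthase, rose 1.45-fold to 11.4 ± 2.36 CPM (SD, n = 6; edgeR adjusted p = 0.0140), while Cbr1 and Ptgr2, reductases that act on prostaglandins, fell by 0.18 and 0.14 on the log2 scale. Of the other prostanoid receptors and transporters, 3 of 7 passed: Ptgfr, the prostaglandin F receptor, rose by 0.33 and Abcc4, an exporter of prostaglandins, by 0.22, and Ptgfrn, a partner of the prostaglandin F receptor, fell by 0.19 on the log2 scale. Of the lipoxygenase and leukotriene genes, 4 of 9 passed. The leukotriene receptors Cysltr2 and Cysltr1 and the 5-lipoxygenase activating protein Alox5ap rose by 0.91, 0.53 and 0.53, and Alox12 fell by 0.31. The median log2 fold changes were -0.038 for the enzymes, -0.024 for the receptors and transporters and 0.30 for the lipoxygenase and leukotriene genes, beside -0.0047 for all genes.

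**Figure D4:**
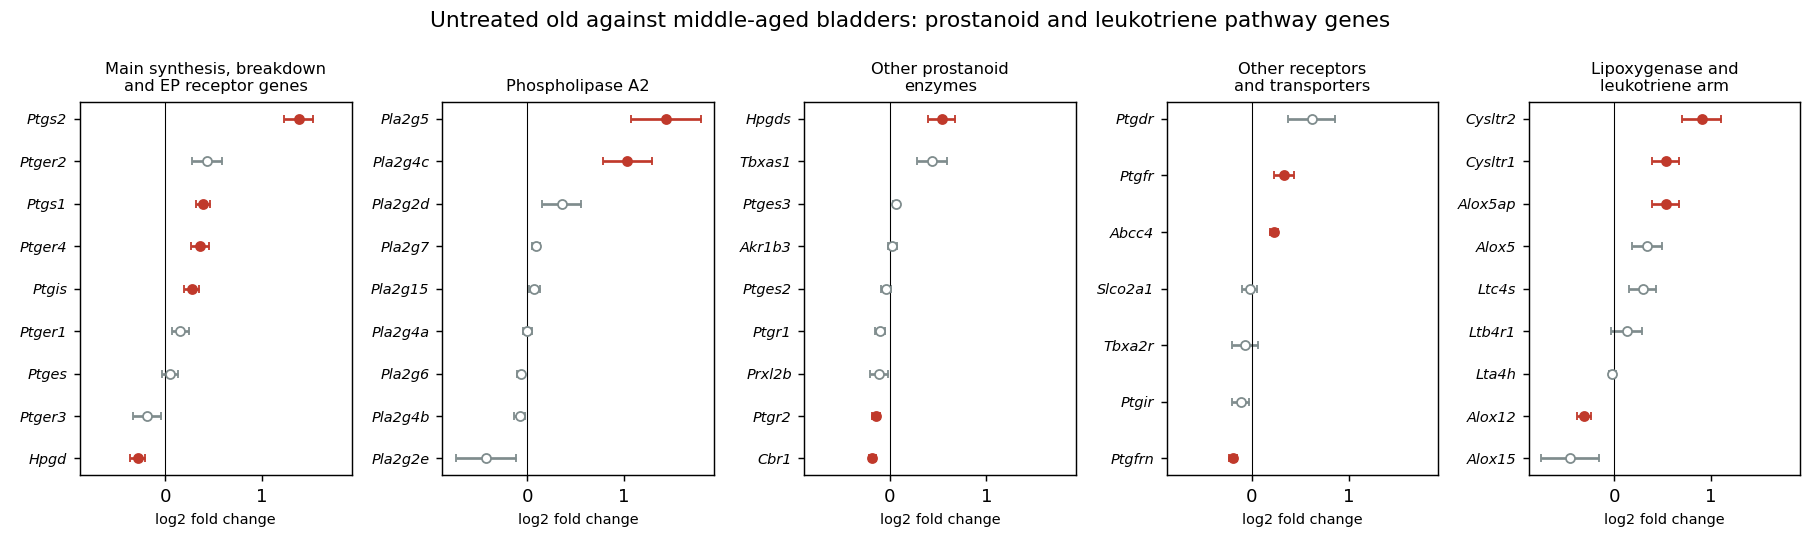
Log2 fold change of untreated old over middle-aged bladders (x axis) for the prostaglandin genes and the 4 pathway lists; bars are standard errors, filled red points have adjusted p under 0.05 by edgeR. Ptgs2 at 1.38 and Pla2g5 at 1.44 lie farthest to the right.

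Some surrounding genes passed between 2 and 10 months, where 10.8% of all genes did. Over that interval Pla2g2d rose 2.66-fold (8.72 ± 0.886 to 23.3 ± 2.81 CPM, n = 6 and 5, edgeR adjusted p = 4.44e-06), and Ptgdr, a receptor for PGD2, and Ptgfr rose by 2.11 and 0.68 on the log2 scale. Here 3 of 9 phospholipase A2 genes, 3 of 7 receptors and transporters and 1 of 9 lipoxygenase and leukotriene genes passed, all higher. None of 9 other enzymes did (2 at an unadjusted p of 0.05, 0 by DESeq2). Over all genes, 4564 of 16754 had an unadjusted p under 0.05, and DESeq2 called 2672. In untreated old against young bladders, where 25.1% of all genes passed, the phospholipase A2 list had 6 of 9 (4 higher, 2 lower), the receptors and transporters 4 of 7 (3 higher, 1 lower), the lipoxygenase and leukotriene list 2 of 9 (1 higher, 1 lower) and the other enzymes 1 of 9, higher. Ptgfr then stood 2.01-fold higher and Ptgdr 6.61-fold higher, at 1.12 ± 0.207 against 0.191 ± 0.173 CPM, and Alox15 2.47-fold lower.

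None of the list genes passed by edgeR in the gavage comparisons. Of 34 to 35 genes tested in the pairs of groups, 6 for water, 2 for vehicle, 2 for D+Q against untreated and 1 for D+Q against vehicle had an unadjusted p under 0.05 by edgeR, and DESeq2 called 0 in each. For any difference among the 4 old groups, 5 of 36 had an unadjusted p under 0.05 by edgeR. There DESeq2 called 1, a gene of the receptor and transporter list. Over all genes, 2760 of 17250 for water, 1464 of 17440 for vehicle and 2200 of 17037 for D+Q against untreated had such a p by edgeR. The counts were 722 of 17267 for D+Q against vehicle and 1650 of 17893 for any difference. DESeq2 called 703, 132, 185, 11 and 189 of all genes in that order.

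Several lists of immune cell markers were higher late in life, while the mast cell list was not. In untreated old against middle-aged bladders, 7 of 8 macrophage markers, 5 of 5 B cell markers, 5 of 5 T cell markers and the 1 neutrophil marker tested rose. Their summed levels were 669 to 1099 against 494 to 585 CPM for macrophages, 61.5 to 188 against 3.31 to 8.91 CPM for B cells and 31.6 to 65.5 against 7.03 to 9.19 CPM for T cells. Of 6 tested mast cell markers 1 rose, and the median log2 fold change of that list was -0.23. The summed mast cell level was 33.9 to 62.8 against 44.0 to 75.2 CPM. Of the tissue's other cells, 3 of 8 urothelial, 2 of 7 smooth muscle, 1 of 6 fibroblast and 1 of 4 Schwann cell markers fell, 2 of 6 endothelial markers fell and 1 rose, and 1 of 4 tested skeletal muscle markers fell and 1 rose. Of all genes, 13% were higher and 11% lower. No marker in these lists was at 0 in any group. The part of cell makeup in the rise of Ptgs2, Ptgs1, Ptgis and Ptger4 and the fall of Hpgd was not tested. Macrophage sums were 677 to 750 CPM in water, 608 to 933 CPM in vehicle and 666 to 746 CPM in D+Q bladders. Ptgs2 was 5.73 to 23.9, 11.3 to 19.0 and 7.95 to 32.7 CPM in the same groups, and 17.7 to 26.8 CPM in untreated old bladders. How Ptgs2 and the macrophage sums go together was not tested.

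The genes most like each called member over all 32 bladders were found by Pearson correlation of log2(CPM + 0.1) among 15042 genes with a mean of at least 1 CPM, as a description in which bladders of a group share age and treatment. Ptgs2 was most like Ccn2 (r = 0.86), Trib1 (r = 0.83) and Dusp8 (r = 0.82). After subtraction of group means these were 0.82, 0.83 and 0.85, so the likeness held between bladders of the same group. Ptgs1 was most like Slc10a6 (r = 0.90, 0.78 within groups), Galnt3 (r = 0.84, 0.70) and Slc43a3 (r = 0.83, 0.38).

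Among the genes most like Hpgd were Dixdc1 (r = 0.84, 0.81 within groups) and Angpt2 (r = 0.83, 0.68). Ptgis was most like Tspan4 (r = 0.83, 0.59), Mafg (r = 0.80, 0.69) and Gas6 (r = 0.80, 0.51). Ptger4 had the weakest likeness, to Trib2 (r = 0.74, 0.50), Fam167a (r = 0.73, 0.50) and Aldh1a3 (r = 0.73, 0.50).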

How the data were processed

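The authors aligned total RNA reads (TruSeq Stranded Total RNA) to mm10 with STAR 2.7.3, used featureCounts to count them per gene, and deposited raw counts without normalization, with each gene's exon length as the other deposited measure. The second deposited table, of normalized expression, was not used. From the counts, CPM and TPM were computed, and groups were compared with edgeR 4.0.16 in R 4.3.3 (TMM, filterByExpr, quasi-likelihood test, Benjamini-Hochberg over all genes, adjusted p under 0.05), each fit holding its own groups. The study's methods name edgeR but no test or filter. A floor of 3 counts covers counting error only, and no molecular identifiers were named. Alternatives were DESeq2 1.42.0, its size factors in edgeR, no filter, a minimum of 10 counts in each bladder of a fit, a fit of the 6 groups together, a block for the replicate number, and leaving bladders out singly. The code was tested on simulated data. The 10 members always appear; single fold changes are given for unadjusted p under 0.05, up to 6 called genes per list and 3 like genes per called member, some items not being reported here; the other fold changes of Ptgs2, those of the gavaged groups together, and Pla2g4a were added after their values were seen. Members and lists were chosen with earlier results of these data known. In gene symbols, Prxl2b was matched as Fam213b.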

Additional observations from a re-analysis of the deposited data

Results flagged for a closer look

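Of 60 pairs of a group and a gene, 3 held a bladder far from the rest of its group; chance flags about 1 in 20. Ptgs1 was 115.2 CPM (1700 counts) in young replicate 3, against 83.7 to 92.4 CPM in the other young bladders. Ptger3 was 13.3 CPM (417 counts) in untreated old replicate 3, against 7.68 to 9.69 CPM in the others. Ptger3 was 5.63 CPM (107 counts) in water-gavaged old replicate 1, against 8.07 to 8.41 CPM in the others.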

How the results depend on the processing

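In untreated old against middle-aged bladders, 5 members passed; 3 did with the replicate block, where Hpgd (adjusted p = 0.0699) and Ptger4 (adjusted p = 0.0665) were lost, 6 by DESeq2 (Ptger2 gained), 5 to 6 with a bladder left out, and 8 with gavaged old bladders in their place (14.6% of all genes). The block used the replicate numbers of the sample titles, which differ from those in the column names for some bladders. Same-numbered deviations correlated from -0.130 to 0.197, with 2 of 5 pairs over 0.1. These few pairs cannot show whether the bladders are paired, and the numbers in the column names were not tried. For vehicle against untreated, DESeq2 called 1 member against 0. Untreated old against young gave 2 to 3 with a bladder left out, and the remaining comparisons stayed at 0. Of 312 refits of 18 single fold changes, 304 kept their call and direction, 2 lost it, 6 gained it and 0 changed sign. Over all genes, the count for middle-aged against young (1811) became 716 with the block, 2858 in a single fit of all groups and 728 to 2794 with a bladder left out. For untreated old against middle-aged (4110) it became 2519 in the single fit and 2601 with gavaged bladders. For water against untreated (173) it became 703 by DESeq2, 99 without a filter, 0 with the block, 0 in the single fit and as few as 37 (without water replicate 1). For any difference among the old groups (12) it became 189 by DESeq2, 0 with the block and 2 to 29 with a bladder left out. The cause of these differences was not tested. Ptger2 and Ptger1, at a few CPM, rest on the fewest counts of the tested members, and Ptgds, with at most 8 counts in a bladder, showed no detectable difference at this depth.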

Other observations

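Ranked after group means were removed, a ranking chosen after seeing the data, the genes most like Ptgs2 over the 32 bladders were Sik1 (r = 0.87), Jun (r = 0.85) and Dusp8 (r = 0.85), of which Jun encodes an early-response transcription factor and Sik1 a kinase. The values before that step were 0.73, 0.71 and 0.82. For Hpgd the corresponding genes were Dixdc1 (r = 0.81), Plscr4 (r = 0.74) and Slc38a6 (r = 0.74). Genes are not independent replicates, and bladders of one group share age and treatment.

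Mast cells are a known source of PGD2. By edgeR's adjusted p, 4 of 6 tested mast cell markers were lower in untreated old than in young bladders. In middle-aged against young bladders 3 of 6 were lower, and in untreated old against middle-aged bladders 1 of 6 was higher. Over all genes, 2095 of 16873, 980 of 16754 and 2231 of 17156 passed in these directions, in that order. The summed level of all 8 markers in the list, tested or not, was 33.6 to 68.1 CPM in young and 44.0 to 75.2 CPM in middle-aged bladders. In untreated old bladders it was 33.9 to 62.8 CPM. The sum did not follow the lower calls between young and middle-aged bladders.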
